A study of Mus musculus with 6 samples.

Results

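Tuft cells are rare chemosensory cells of the gut epithelium, and the genes described here are 10 that are known to mark them: Dclk1, Trpm5, Pou2f3, Sh2d6, Il25, Avil, Alox5, Rgs13, Il17rb and Cd300lf. They were taken by symbol from a colon gene table of 20170 genes, in which 9 of the 10 had a row. Sh2d6, an adaptor protein of tuft cells, was not analysed here. RNA had been sequenced from colon tissue of C57BL/6J mice of wild-type genotype in 2 groups of 3 samples. In the AOM/DSS with chronic restraint stress group (restraint samples), mice received AOM/DSS and were confined each day, for 3 to 4 hours, in a 50 mL tube with air holes. In the AOM/DSS group without stress (AOM/DSS alone), mice received AOM/DSS only. AOM/DSS is a model of colitis-associated colon cancer that both groups share: the mutagen azoxymethane was given once into the peritoneum at 10 mg/kg, followed by 3 rounds of 2% dextran sulfate sodium, an irritant, in the drinking water. Ages and sexes are not given in the labels, nor is the place along the colon. Replicate numbers only name samples. The labels do not state that each sample is a separate mouse, so the p-values speak only of sample-to-sample spread, which may be technical. The comparison asks how colon expression in this cancer model differs with restraint.

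Tuft cells sense luminal metabolites through receptors coupled to a taste-type cascade that ends in the cation channel Trpm5. Their transcription factor Pou2f3 is required for the lineage to form. On stimulation, tuft cells release interleukin 25 and cysteinyl leukotrienes, which act on innate lymphoid cells of the type 2 immune response in the lamina propria. Because they are few, their transcripts are diluted in RNA of a whole colon wall, and several of the marker genes are also used by immune, nerve or muscle cells. In such bulk samples fewer cells of a type and less RNA per cell cannot be told apart.

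Count totals ran from 27160547 to 33017500 per sample. The labels call the cell type colorectal cancer cell, but the libraries held markers of many cells of the colon wall. Summed levels of 8 epithelium markers, among them Krt8, Krt19 and Epcam, were 10930 to 14580 CPM (counts scaled for depth with edgeR's TMM factors) in restraint samples and 12980 to 17110 CPM in AOM/DSS alone. Smooth muscle markers (7 genes) summed to 2356 to 3917 CPM in restraint samples and 5265 to 7093 CPM in AOM/DSS alone. AOM/DSS replicate 3 stood apart by squamous keratins: Krt5, of the basal layer of squamous epithelium, was at 890 CPM there and at 0.67 CPM or less in the other 5 samples. AOM/DSS replicate 1 had low levels of some myeloid markers, with 6.52 CPM summed over 6 neutrophil markers and 43.2 CPM over 8 mast cell markers, each the lowest of the 6 samples. Values below are therefore also given without these libraries where that moves them.

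The promoters of 3 members are shown because their groups did not overlap: Trpm5 and Dclk1 were lower and Avil was higher in every restraint sample than in every AOM/DSS sample. Each sequence is the 250 bases before a transcription start in RefSeq (GRCm38.p6), read 5′ to 3′ on the gene's own strand. Of the 10 members 8 matched this table, with 9 starts, since Dclk1 has a start for its long form and a second, downstream start for a short form; the count table has 1 row for both. The letters ATGCAAAT (ATTTGCAT on the other strand), the octamer bound by POU factors, were searched on both strands from 250 bases before to 50 bases after each start. None of the 9 member windows held it, beside 1.74% of all 32851 windows of the same length. A form without the last T, ATGCAAA or TTTGCAT on the other strand, was chosen after the sequences had been read. It is in capitals below and occurred only in the Avil window among members, beside 4.63% of all windows. A match is a description of letters and not a binding site.
Trpm5, chr7:143094643-143094892, - strand: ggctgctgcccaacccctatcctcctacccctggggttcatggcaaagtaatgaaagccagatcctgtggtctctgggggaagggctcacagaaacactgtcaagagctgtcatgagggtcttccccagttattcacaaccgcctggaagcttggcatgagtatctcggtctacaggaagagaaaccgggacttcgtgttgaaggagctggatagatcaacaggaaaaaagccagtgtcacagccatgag
Dclk1, upstream start, chr3:55242114-55242363, + strand: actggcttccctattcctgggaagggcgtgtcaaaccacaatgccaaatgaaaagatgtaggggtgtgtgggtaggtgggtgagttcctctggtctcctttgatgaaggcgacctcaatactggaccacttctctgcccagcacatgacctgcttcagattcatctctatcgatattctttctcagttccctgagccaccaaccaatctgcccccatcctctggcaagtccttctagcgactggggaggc
Dclk1, downstream start, chr3:55461478-55461727, + strand: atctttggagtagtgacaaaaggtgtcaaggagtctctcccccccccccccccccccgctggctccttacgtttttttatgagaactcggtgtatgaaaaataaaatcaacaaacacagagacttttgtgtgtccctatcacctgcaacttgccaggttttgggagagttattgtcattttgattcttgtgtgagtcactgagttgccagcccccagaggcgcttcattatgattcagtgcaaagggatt
Avil, chr10:127000459-127000708, + strand: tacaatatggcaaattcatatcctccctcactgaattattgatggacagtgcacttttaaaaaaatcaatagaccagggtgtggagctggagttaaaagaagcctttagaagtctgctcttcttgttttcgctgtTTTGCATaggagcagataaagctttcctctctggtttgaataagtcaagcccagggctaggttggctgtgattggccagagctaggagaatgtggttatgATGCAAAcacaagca

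The 10 genes did not move as 1 group. Of the 8 members tested, 4 had a log2 fold change below 0 and 4 above 0, with a median of -0.46, beside a median of -0.015 over all 15890 genes tested. Dclk1 and Trpm5 were lower in restraint samples by log2 fold changes of -0.93 and -1.02, and Avil was higher by 1.504. By edgeR's quasi-likelihood test with Benjamini-Hochberg adjustment over all genes, 0 members passed an adjusted p of 0.05, where 0% of all genes passed (smallest adjusted p of any gene 0.191). At an unadjusted p under 0.05 there were 3 members lower (Dclk1, Trpm5 and Rgs13) and 1 higher (Avil), beside 8.82% and 7.82% of all genes. The groups did not overlap for 2 members that were lower and 1 that was higher, beside 11.2% and 12.5% of all genes, or 23.8% in either direction. DESeq2 called 1 member, Dclk1, as lower and 0 as higher, where it called 2.87% of genes as lower, 2.28% as higher and 5.16% in either direction. Limma-voom called 0 genes, with 2591 genes at an unadjusted p under 0.05, and edgeR had 2644 such genes.

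**Figure D1:**
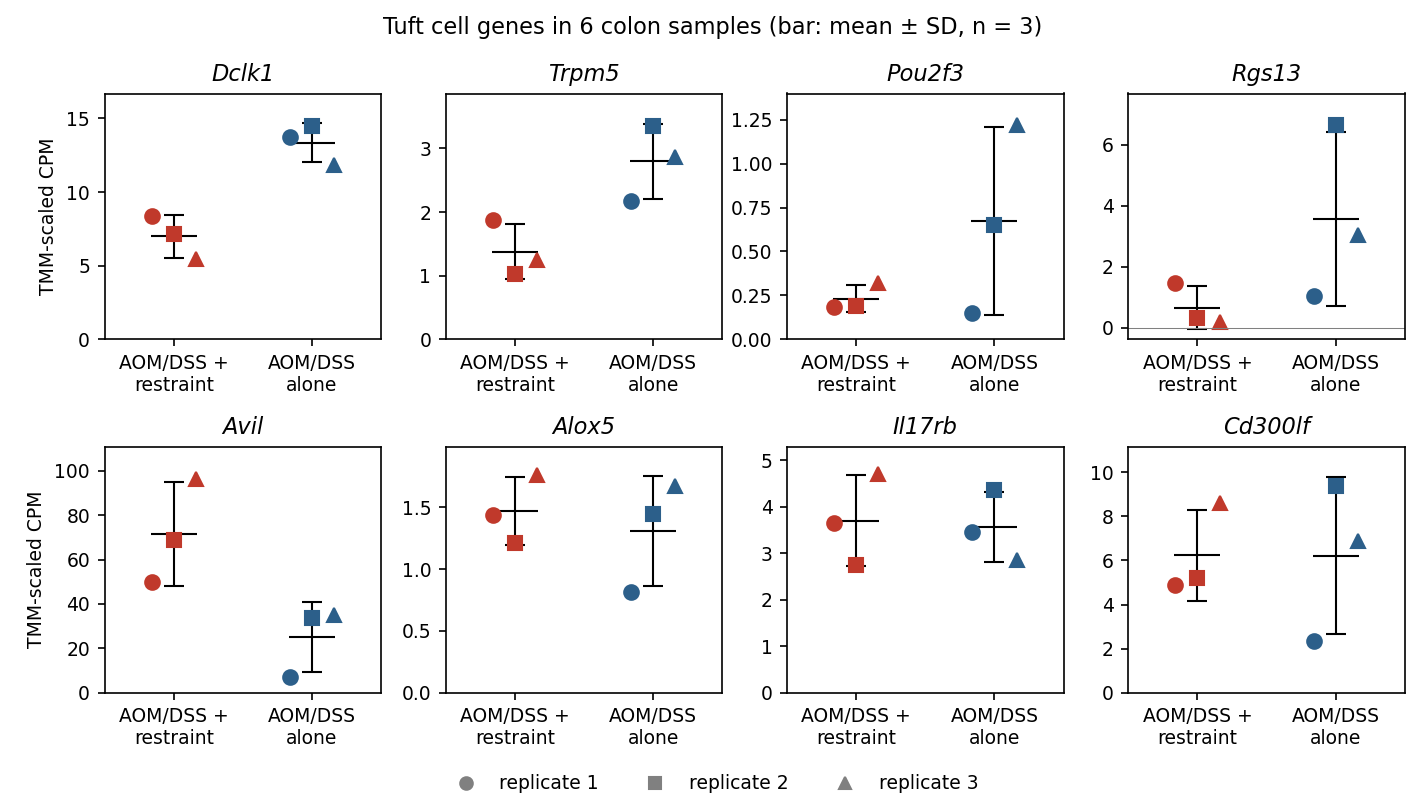
TMM-scaled CPM of the 8 tested tuft cell genes in 3 AOM/DSS with restraint samples (red) and 3 AOM/DSS alone samples (blue); marker shapes are replicates, and bars are mean ± SD. Dclk1 and Trpm5 lie lower and Avil higher in all 3 restraint samples, and the other 5 genes overlap between the groups.

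Trpm5 is the calcium-activated cation channel at the end of the taste-type cascade, used in the colon mainly by tuft cells. It was at 1.87, 1.02 and 1.25 CPM in restraint replicates 1, 2 and 3, against 2.17, 3.36 and 2.86 CPM in AOM/DSS alone. Restraint replicate 1 came closest to the other group, next to AOM/DSS replicate 1, and the groups did not overlap. The log2 fold change was -1.02 ± 0.37 (SE, edgeR adjusted p = 0.268; DESeq2 adjusted p = 0.124). It ranged from -1.29 to -0.84 when samples were left out in turn. Scaled to the summed counts of the 8 epithelium markers in place of all genes, it was -0.89 ± 0.45 (edgeR adjusted p = 0.448), where this scaling moved the median of all genes to 0.16. The counts behind it were low, at 32 to 61 in restraint samples and 59 to 94 in AOM/DSS alone. Trpm5 shares 220 bases of exon with Tssc4 on the opposite strand in the GENCODE M21 annotation, and the strand setting of the counting is not given in the sources used here. Tssc4 had a log2 fold change of 0.41 ± 0.14, and its part in the Trpm5 values was not tested.

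Dclk1, a microtubule-associated kinase used as a tuft cell marker and also expressed in neurons, gave the smallest p of the members. It was at 8.36, 7.15 and 5.48 CPM in restraint replicates 1, 2 and 3, against 13.8, 14.5 and 11.9 CPM in AOM/DSS alone. The highest restraint sample lay below the lowest AOM/DSS sample, and the spread within each group was narrow, with means of 6.995 ± 1.45 CPM in restraint samples and 13.4 ± 1.35 CPM in AOM/DSS alone (SD, n = 3 each). The log2 fold change was -0.93 ± 0.22 (edgeR adjusted p = 0.195; DESeq2 adjusted p = 0.00483). Left-out samples gave -1.07 to -0.78, and scaling to epithelium markers gave -0.79 ± 0.28 (edgeR adjusted p = 0.433). Markers of nerve and muscle cells were lower in the same samples. All 8 enteric neuron markers were lower in restraint samples and did not overlap, with summed levels of 43.2 to 50.4 CPM in restraint samples and 93.2 to 167.7 CPM in AOM/DSS alone. The 7 smooth muscle markers were all lower too, 6 of them without overlap. Over all genes, 11.2% were lower in restraint samples without overlap. None of the markers of either list was at 0 in any sample, and their part in the Dclk1 difference was not tested.

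Pou2f3, the POU-domain factor of the tuft cell lineage, was barely detected. It had 6, 6 and 10 counts in restraint samples and 4, 18 and 40 counts in AOM/DSS alone, which is 0.184, 0.192 and 0.320 CPM against 0.147, 0.649 and 1.217 CPM. AOM/DSS replicate 1 was the lowest of all 6 samples and AOM/DSS replicate 3 the highest, so the groups overlapped. Pou2f3 is also used in squamous epithelium, whose 8 markers summed to 2955 CPM in AOM/DSS replicate 3 and to 11.3 to 78.7 CPM in the other 5 samples; Krt5, Krt4, Krt6a and Trp63 were at 0 in at least 1 of the others. The log2 fold change was -1.53 ± 0.78 (edgeR adjusted p = 0.351). Without AOM/DSS replicate 3 it was -0.78 ± 0.81 (edgeR adjusted p = 0.639), and without AOM/DSS replicate 1 it was -2.00 ± 0.60 (edgeR adjusted p = 0.283). The part of squamous cells in the Pou2f3 values was not tested.

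Avil, the actin-binding protein advillin of tuft cell microvilli and of sensory neurons, ran the other way. It was at 49.7, 68.9 and 96.3 CPM in restraint samples, against 6.93, 33.7 and 35.1 CPM in AOM/DSS alone. Every restraint sample was above every AOM/DSS sample, and AOM/DSS replicate 1 lay far below both other samples of its group. The log2 fold change was 1.504 ± 0.59 (edgeR adjusted p = 0.292; DESeq2 adjusted p = 0.0640). Without AOM/DSS replicate 1 it was 1.06 ± 0.27 (edgeR adjusted p = 0.253). Avil shares 165 bases of exon with Tsfm, a mitochondrial translation factor, on the opposite strand. Tsfm was at 28.98 ± 0.72 CPM in restraint samples and 28.4 ± 2.23 CPM in AOM/DSS alone (SD, n = 3 each). The part of Tsfm in the Avil values was not tested.

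Ratios between members were taken per length. FPKM values, the authors' fragment values scaled for gene length and depth, allow levels of different genes to be compared. The ratio of Avil FPKM to Trpm5 FPKM was 38.8, 98.8 and 111 in restraint samples, against 4.65, 14.5 and 17.7 in AOM/DSS alone. The groups of this ratio had to lie apart, since Avil was higher and Trpm5 lower in every restraint sample, so it is given without a test. The ratio of Dclk1 FPKM to Trpm5 FPKM was 1.52, 2.39 and 1.47 in restraint samples, against 2.15, 1.46 and 1.40 in AOM/DSS alone. These overlapped (two-sided exact permutation p = 0.5, where 0.1 is the smallest it can give, n = 3 each); with 3 samples each, such a p does not show that the ratio was alike in both groups. Both ratios were chosen after the values were seen.

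Rgs13, a regulator of G protein signalling found in tuft cells, mast cells and germinal centre B cells, had the widest range of the members. It was at 1.47, 0.319 and 0.192 CPM in restraint samples, against 1.03, 6.64 and 3.04 CPM in AOM/DSS alone. AOM/DSS replicate 1 lay below restraint replicate 1, so the groups overlapped. The log2 fold change was -2.42 ± 0.94 (edgeR adjusted p = 0.286), and it was -3.77 ± 0.94 without restraint replicate 1 (edgeR adjusted p = 0.202) and -1.62 ± 0.95 without AOM/DSS replicate 2 (edgeR adjusted p = 0.430). B cell markers ranked the 6 samples in the same order as Rgs13. The 7 markers, among them Cd79a and Cd79b, summed to 187, 44.3 and 7.85 CPM in restraint samples and to 83.7, 509 and 346 CPM in AOM/DSS alone, with none at 0 in any sample. Of the 6 germinal centre B cell markers, Mef2b was at 0 in at least 1 sample. The part of B cells in the Rgs13 values was not tested.

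Il25, the cytokine that tuft cells release, was listed at 0 counts in all 6 samples. At these depths a count of 0 allows a level of up to 3 counts, or 0.0912 to 0.111 CPM, for counting error only. Of counts from 1 to 20, 63.9% to 66.5% were even, against 48.0% to 50.4% of counts up to 1000 in a higher band. This limit therefore holds in counts and not in sequenced fragments, whose mates may have been counted apart. The same applies to the other low counts given here. All counts of Pou2f3 and of Rgs13 were even, so they may stand for fewer fragments. Il17rb, a chain of the interleukin 25 receptor carried by tuft cells and innate lymphoid cells, was at 3.65, 2.74 and 4.71 CPM in restraint samples, against 3.46, 4.37 and 2.86 CPM in AOM/DSS alone. The samples of both groups were interleaved, with a log2 fold change of 0.055 ± 0.32 (edgeR adjusted p = 0.946), which turned to -0.16 without restraint replicate 3 and to -0.083 without AOM/DSS replicate 3. Il17rb shares 141 bases of exon with Actr8 on the opposite strand.

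Alox5, the lipoxygenase that starts leukotriene synthesis in tuft and myeloid cells, was at 1.44, 1.21 and 1.76 CPM in restraint samples, against 0.811, 1.44 and 1.67 CPM in AOM/DSS alone. AOM/DSS replicate 1 was the lowest sample, and the other 5 were interleaved. The log2 fold change was 0.17 ± 0.40 (edgeR adjusted p = 0.851), and -0.085 without AOM/DSS replicate 1. Cd300lf, a lipid-binding receptor of tuft and myeloid cells and the entry receptor for murine norovirus, was at 4.90, 5.20 and 8.62 CPM in restraint samples, against 2.36, 9.38 and 6.90 CPM in AOM/DSS alone. It was again lowest in AOM/DSS replicate 1, and its log2 fold change was 0.005 ± 0.51 (edgeR adjusted p = 0.997), turning to -0.38 without that sample and to -0.30 without restraint replicate 3. The 7 macrophage markers, led by Lyz2, C1qa and C1qb, summed to 357, 351 and 804 CPM in restraint samples and 294, 851 and 419 CPM in AOM/DSS alone, highest in the 2 samples where Cd300lf was highest. None was at 0 in any sample, and their part in the Cd300lf values was not tested. A missing call for Il17rb, Alox5 and Cd300lf does not show that they were alike in both groups.

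**Figure D2:**
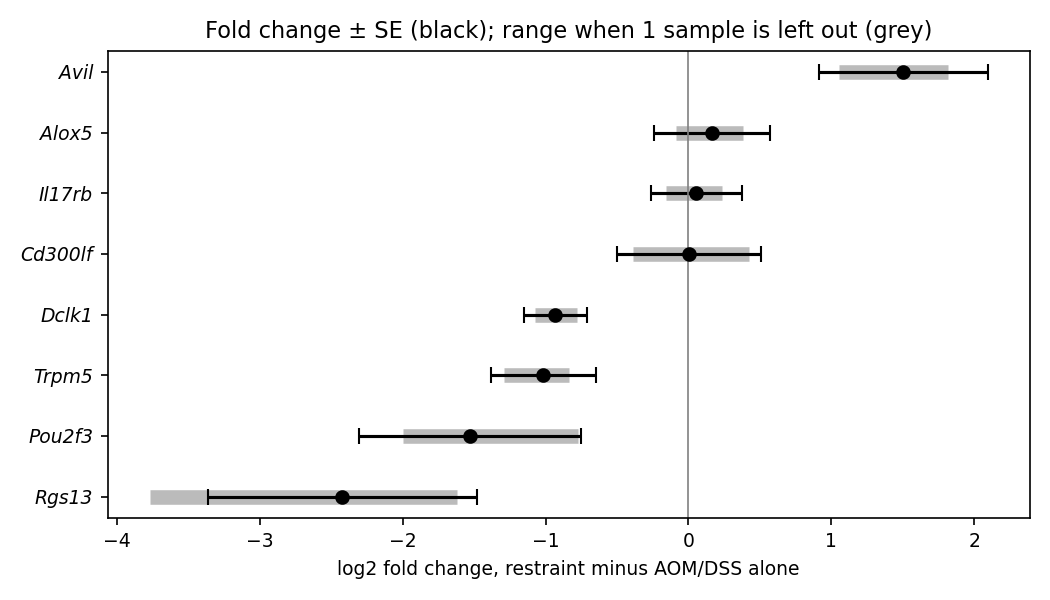
Log2 fold change (restraint minus AOM/DSS alone) of the 8 tested tuft cell genes; black points and bars are edgeR estimates ± SE, and grey bands span the 6 values with 1 sample left out. Dclk1 (-1.07 to -0.78) and Trpm5 (-1.29 to -0.84) have narrow bands below 0, Rgs13 a wide one, and those of Alox5, Il17rb and Cd300lf cross 0.

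Per length, the members spanned a wide range of levels. Mean FPKM over the 6 samples was 16.2 for Avil, 3.34 for Cd300lf, 1.77 for Il17rb, 1.42 for Rgs13, 0.778 for Dclk1, 0.497 for Alox5, 0.473 for Trpm5 and 0.178 for Pou2f3, with Il25 listed at 0. Neighbours in this order overlapped in their ranges over samples, from Avil at 2.14 to 33.4 FPKM and Cd300lf at 1.17 to 5.08 FPKM down to Trpm5 at 0.23 to 0.78 FPKM and Pou2f3 at 0.05 to 0.48 FPKM. These are ranges over the same 6 samples. Within each sample, Avil was above Cd300lf and Trpm5 was above Pou2f3. The lowest sample was AOM/DSS replicate 1 for 4 of the 8 tested members (Pou2f3, Avil, Alox5 and Cd300lf), restraint replicate 2 for Trpm5 and Il17rb, and restraint replicate 3 for Dclk1 and Rgs13. AOM/DSS replicate 2 held the highest value for 4 members, Dclk1, Trpm5, Rgs13 and Cd300lf. Within AOM/DSS alone, Dclk1 spanned 11.9 to 14.5 CPM and the highest sample exceeded the lowest 1.54-fold for Trpm5, but 8.25-fold for Pou2f3, 6.43-fold for Rgs13 and 5.07-fold for Avil.

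Profiles of the members over samples were compared by the root mean square difference of log2 CPM, each gene centred on its mean over the 6 samples. Among the 28 pairs of tested members, Dclk1 and Trpm5 were the most alike at 0.285, and Avil and Rgs13 the least at 2.36. This distance is small beside those of other members but common in the table: of 13682 other genes with a mean of at least 1 CPM, 101 were closer than that to Trpm5 and 346 to Dclk1. The 5 closest to Trpm5 were Adam23, a member of the disintegrin family (0.040), Glp2r, the receptor of glucagon-like peptide 2 (0.10), Slitrk6, a neuronal membrane protein (0.10), Slco2b1, an organic anion transporter (0.12), and Gdap1l1 (0.12). Adam23 was at 6.31, 3.41 and 4.13 CPM in restraint samples and 7.26, 11.8 and 9.46 CPM in AOM/DSS alone. The 5 closest to Dclk1 were Pcp4l1 (0.06), Klhl13, a substrate adaptor of ubiquitin ligases (0.06), Cacna1h, a T-type calcium channel (0.11), Hsf4, a heat shock factor (0.11), and Tmod4, a tropomodulin of muscle (0.13). Pcp4l1 was at 33.3, 29.9 and 21.7 CPM in restraint samples and 53.3, 52.02 and 45.7 CPM in AOM/DSS alone.

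Set beside the marker lists by the same measure, an addition made after the values were seen, the members had different nearest lists. Dclk1 was closest to smooth muscle (0.244) and enteric neurons (0.341), Rgs13 to B cells (0.793), and Cd300lf to macrophages (0.297). Il17rb was closest to macrophages (0.395), with epithelium (0.413) and fibroblasts (0.447) at similar distances. Alox5 was closest to fibroblasts (0.370) and macrophages (0.399), and Avil to mast cells (0.595) and neutrophils (0.626). Trpm5 and Pou2f3 were closest to the germinal centre B cell list (0.277 and 0.664), which also holds Fas and Bcl6, genes of many cells. The 6 neutrophil markers, led by S100a9, S100a8 and Mmp9, summed to 37.6, 165.8 and 179.7 CPM in restraint samples and 6.52, 38.1 and 69.6 CPM in AOM/DSS alone, with none at 0 in any sample. The 8 mast cell markers, led by Mcpt1, Kit and Mcpt2, summed to 73.0, 89.4 and 131 CPM in restraint samples and 43.2, 107 and 150.3 CPM in AOM/DSS alone, with Ms4a2 at 0 in at least 1 sample. Whether such cells bear on the Avil values was not tested.

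**Figure D3:**
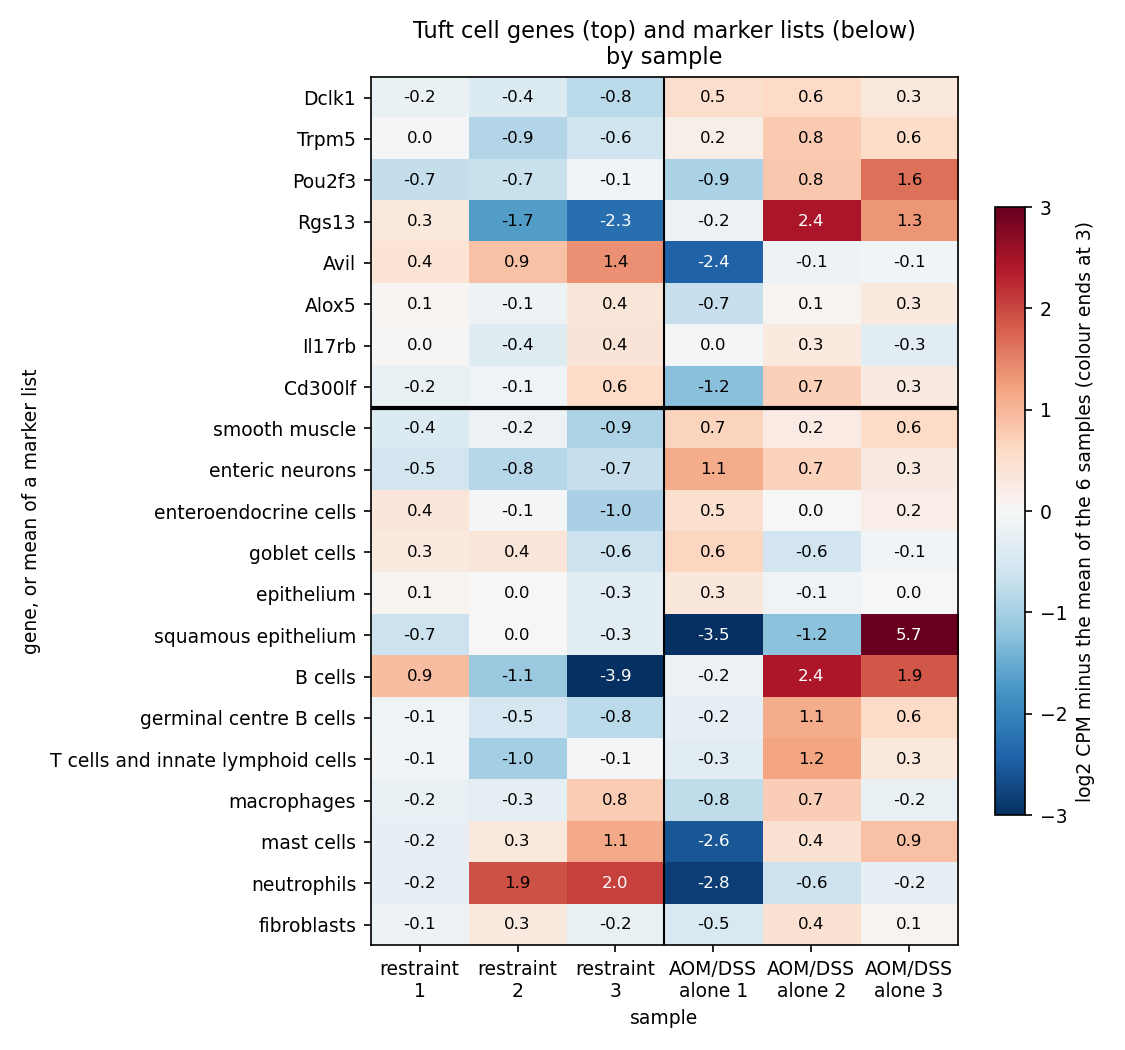
Log2 CPM minus the mean of the 6 samples, for the 8 tested tuft cell genes (above the line) and the mean of each marker list (below it), in 3 restraint samples (left) and 3 AOM/DSS alone samples (right). Dclk1 and Trpm5 are below 0 in every restraint sample, Avil is at -2.42 in AOM/DSS replicate 1, and the Rgs13 row follows the B cell row.

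Other genes of tuft cells also lay on both sides of 0. A list of 18 was meant to hold those with little use in immune cells, but their use in immune cells was not tested. Of these 18, 16 were tested between the groups and 0 passed in edgeR, with 6 above and 10 below 0. The median log2 fold change was -0.17. At an edgeR unadjusted p under 0.05 there were 5 higher and 2 lower, beside 7.82% and 8.82% of all genes. With 1 sample left out in turn the median ranged from -0.245 (without restraint replicate 3) to -0.076 (without restraint replicate 1). It was -0.238 without AOM/DSS replicate 1, -0.103 without restraint replicate 2, -0.085 without AOM/DSS replicate 2 and -0.044 when scaled to epithelium markers. The 4 of smallest p were all higher in restraint samples, and all 4 also serve cells other than tuft cells. Krt18, a keratin of simple epithelium, was at 636 ± 105 CPM in restraint samples and 449 ± 25.8 CPM in AOM/DSS alone (SD, n = 3 each). Krt23, another keratin, was at 91.4 ± 57.9 CPM in restraint samples and 23.5 ± 13.4 CPM in AOM/DSS alone, and Smpx, a small muscle protein, at 30.4 ± 15.2 CPM in restraint samples and 11.96 ± 5.69 CPM in AOM/DSS alone. Nebl, an actin-binding protein, was at 15.5, 10.6 and 12.1 CPM in restraint samples and 0.479, 2.13 and 5.99 CPM in AOM/DSS alone. Gprc5c, an orphan receptor named after its values were seen, had a log2 fold change of 1.65 ± 0.63 with groups that overlapped. DESeq2 called Krt23 and Nebl as higher (adjusted p = 0.0155 and 0.0418), where it called 2.28% of all genes as higher.

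Some genes of that list, named after their values were seen, had few counts. Hmx2, a transcription factor, had 6, 10 and 12 counts in restraint samples and 18, 5 and 12 counts in AOM/DSS alone, which overlapped. Gfi1b, a transcription factor of tuft cells, had 2, 4 and 0 counts in restraint samples and 4, 18 and 12 counts in AOM/DSS alone. Ly6g6f, a membrane protein, had 3, 2 and 2 counts in restraint samples and 4, 10 and 20 counts in AOM/DSS alone. Neither reached the filter on low counts, so neither was tested. Chat is the acetylcholine synthase of tuft cells and of enteric neurons. It had 4, 14 and 14 counts in restraint samples and 62, 22 and 18 counts in AOM/DSS alone. These did not overlap, as for 11.2% of all genes in the lower direction. The log2 fold change of Chat was -1.82 ± 0.75 (edgeR adjusted p = 0.297). Its highest sample was AOM/DSS replicate 1, where the enteric neuron markers were highest too, at 167.7 CPM, and their part in the Chat values was not tested.

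Tuft cell genes that are shared with immune cells were mostly lower. Of 16 tested, 15 had a log2 fold change below 0, beside 8203 of all 15890 genes, with a median of -0.51. At an edgeR unadjusted p under 0.05 there were 4 lower and 1 higher, beside 8.82% and 7.82% of all genes. In edgeR 0 passed the adjusted threshold. The median was -0.19 without AOM/DSS replicate 2, -0.33 without restraint replicate 2 and -0.79 without AOM/DSS replicate 1. Kctd12, a subunit associated with GABA-B receptors, was at 51.9 ± 7.47 CPM in restraint samples and 87.4 ± 16.7 CPM in AOM/DSS alone (SD, n = 3 each). Pik3r5, a regulatory subunit of a phosphoinositide kinase, was at 4.72 ± 0.60 CPM in restraint samples and 10.6 ± 4.23 CPM in AOM/DSS alone. Siglecf, a sialic acid receptor of tuft cells and eosinophils, was at 0.577 ± 0.111 CPM in restraint samples and 1.46 ± 0.572 CPM in AOM/DSS alone, and Skap2, an adaptor protein, at 164 ± 6.25 CPM in restraint samples and 125.0 ± 13.8 CPM in AOM/DSS alone. DESeq2 called Kctd12 and Pik3r5 as lower and Skap2 as higher (adjusted p = 0.00866, 0.0187 and 0.0463). It called 2.87% of all genes as lower and 2.28% as higher. T cell and innate lymphoid markers (6 genes, with Thy1, Cd4 and Cd3g the most abundant) summed to 33.4 to 42.9 CPM in restraint samples and 31.4 to 87.5 CPM in AOM/DSS alone, with none at 0 in any sample. The 7 B cell markers summed to 7.85 to 187 CPM in restraint samples and 83.7 to 509 CPM in AOM/DSS alone. Median log2 fold changes were -0.92 for the T cell and innate lymphoid list, -1.93 for B cells and -0.47 for germinal centre B cells. They were 0.10 for macrophages, 0.24 for mast cells and 2.02 for neutrophils. The part of these cells in the values of the shared genes was not tested.

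The taste-type list held genes of the cascade upstream of Trpm5 and receptors such as Ffar3, and 7 of its 10 genes were tested. Of these 6 were below 0, beside 8203 of all 15890 genes, with a median log2 fold change of -0.79. In edgeR or DESeq2 0 passed, and 2 were lower at an unadjusted p under 0.05, beside 8.82% of all genes. With 1 sample left out in turn the median ranged from -0.98 (without AOM/DSS replicate 3) to -0.52 (without AOM/DSS replicate 2). The 1 gene above 0 was Itpr3, at 232 ± 28.6 CPM in restraint samples and 222 ± 6.21 CPM in AOM/DSS alone (SD, n = 3 each). Its log2 fold change was 0.066 ± 0.12 (edgeR adjusted p = 0.794). Ffar3, a receptor for short-chain fatty acids, was at 0.368, 0.0638 and 0.512 CPM in restraint samples and 1.36, 1.299 and 0.882 CPM in AOM/DSS alone. Tas1r3, a subunit of sweet and umami taste receptors, was at 1.96, 2.11 and 1.57 CPM in restraint samples and 3.35, 4.08 and 2.34 CPM in AOM/DSS alone. For both genes the groups did not overlap, as for 11.2% of all genes in the lower direction. The log2 fold changes of Ffar3 and Tas1r3 were -1.89 ± 0.68 and -0.79 ± 0.33 (edgeR adjusted p = 0.267 and 0.298). Plcb2, the phospholipase of the cascade, was at 4.68 ± 1.42 CPM in restraint samples and 10.4 ± 7.11 CPM in AOM/DSS alone (SD, n = 3 each), and Gnb3, a G protein subunit, had a log2 fold change of -1.54 ± 1.21 (edgeR adjusted p = 0.522). Gnat3, the taste G protein gustducin, and Sucnr1, the succinate receptor, had 10 counts or fewer in every sample and were not tested.

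Genes of leukotriene and prostaglandin D2 synthesis and their receptors gave a median log2 fold change of -0.27 over the 9 tested of 12. In edgeR or DESeq2 0 passed the threshold, and 1 was lower at an edgeR unadjusted p under 0.05, beside 8.82% of all genes. With 1 sample left out in turn the median ranged from -0.31 (without restraint replicate 3) to 0.058 (without AOM/DSS replicate 3). It was -0.28 without AOM/DSS replicate 1, -0.015 without AOM/DSS replicate 2, -0.15 without restraint replicate 1 and -0.16 without restraint replicate 2. Scaled to epithelium markers it was -0.076. Cysltr2, a receptor for cysteinyl leukotrienes, was at 0.613, 0.447 and 0.513 CPM in restraint samples, against 1.36, 1.59 and 1.004 CPM in AOM/DSS alone. The groups did not overlap, as for 11.2% of all genes in the lower direction. The log2 fold change was -1.32 ± 0.40 (edgeR adjusted p = 0.239). Lta4h, which makes leukotriene B4, was at 182 ± 19.2 CPM in restraint samples and 158 ± 2.18 CPM in AOM/DSS alone (SD, n = 3 each). Ptgs1, the constitutive cyclooxygenase, was at 27.3 ± 5.48 CPM in restraint samples and 32.9 ± 0.510 CPM in AOM/DSS alone, and Hpgds, the prostaglandin D2 synthase of tuft and mast cells, at 9.48 ± 2.56 CPM in restraint samples and 12.1 ± 5.30 CPM in AOM/DSS alone.

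In the type 2 circuit that tuft cells feed, 14 of 17 genes with a row were tested, with a median log2 fold change of -0.025, which was above 0 with library-size scaling (0.024), limma-voom (0.056) and scaling to epithelium markers (0.15). With 1 sample left out in turn it ranged from -0.11 (without restraint replicate 1) to -0.008 (without AOM/DSS replicate 2). In edgeR 0 passed the threshold, and 1 was lower at an unadjusted p under 0.05, beside 8.82% of all genes. The same gene was the 1 that DESeq2 called, where 2.87% of all genes were called as lower. That gene, Il17ra, the shared chain of the interleukin 17 and interleukin 25 receptors, was at 29.9, 27.03 and 28.6 CPM in restraint samples, against 42.3, 42.3 and 36.4 CPM in AOM/DSS alone. The groups lay apart, as for 11.2% of all genes in the lower direction. The log2 fold change was -0.50 ± 0.11 (edgeR adjusted p = 0.191, DESeq2 adjusted p = 0.0127). Il1rl1, the interleukin 33 receptor, was at 69.5 ± 37.2 CPM in restraint samples and 30.01 ± 17.7 CPM in AOM/DSS alone (SD, n = 3 each). Areg, the growth factor amphiregulin, was at 46.1 ± 6.56 CPM in restraint samples and 79.2 ± 39.3 CPM in AOM/DSS alone, and Rora, a transcription factor of innate lymphoid cells, at 6.03 ± 1.17 CPM in restraint samples and 8.79 ± 1.87 CPM in AOM/DSS alone. The type 2 cytokines Il4, Il5 and Il13 had 10 counts or fewer in every sample and were not tested.

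Other secretory lineages of the epithelium were set beside these genes. The tuft cell genes had a median log2 fold change of -0.46, the 8 enteroendocrine markers (hormone cells, led by Chgb, Pyy and Chga) of -0.47, and the 7 goblet cell markers (mucus cells, led by Muc2, Zg16 and Fcgbp) of -0.011. The near-equal medians of the first 2 lists came from unlike spreads. Of the tuft cell genes 4 were below and 4 above 0, with none between Dclk1 at -0.93 and Cd300lf at 0.005. Of the enteroendocrine markers 7 were below and 1 above 0, and of the goblet cell markers 4 and 3. In edgeR 0 markers of either list passed. At an edgeR unadjusted p under 0.05 there were 1 enteroendocrine and 0 goblet cell markers, beside 16.6% of all genes in either direction. DESeq2 called 1 and 0, beside 5.16% of all genes. The enteroendocrine median was -0.90 without restraint replicate 1, -0.165 without restraint replicate 3 and -0.26 without AOM/DSS replicate 1. The goblet cell median ranged from -0.25 without AOM/DSS replicate 2 to 0.33 without AOM/DSS replicate 1, was 0.24 without restraint replicate 3, and was 0.18 when scaled to epithelium markers. The difference between the lineages was not tested.

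**Figure D4:**
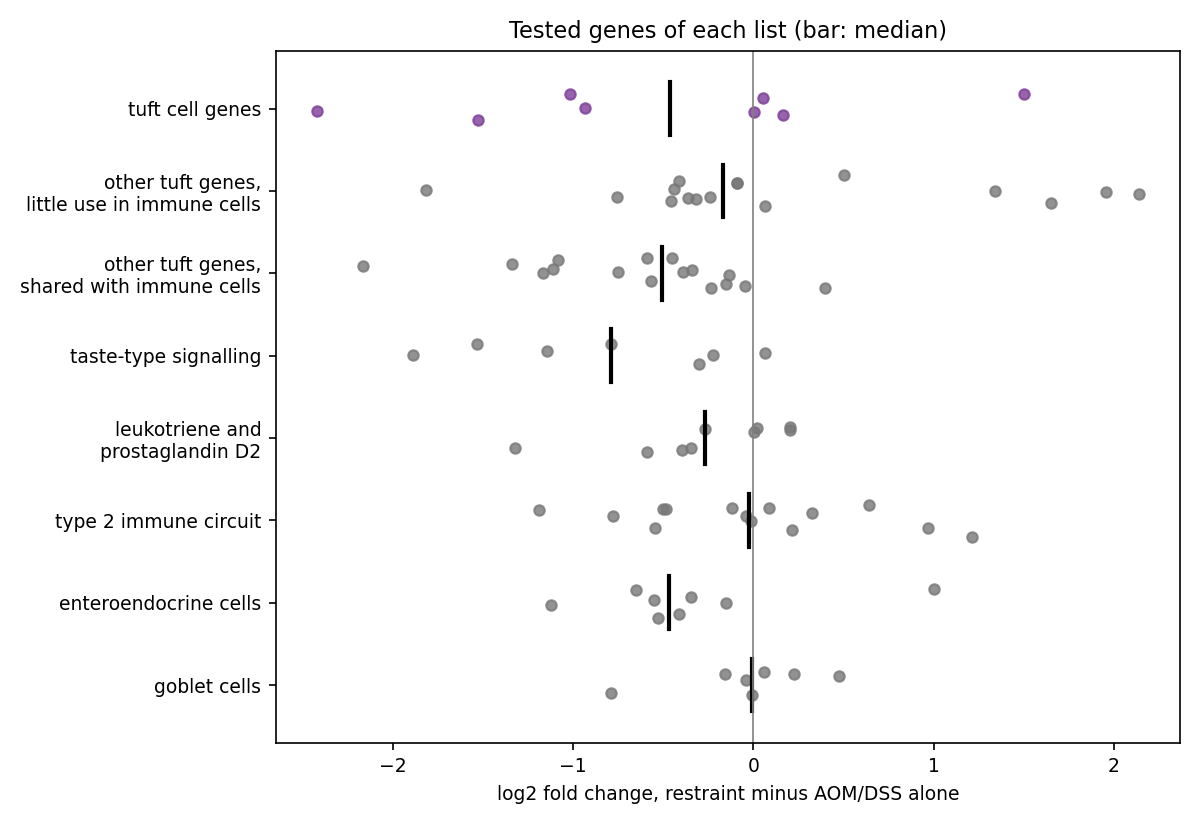
Log2 fold change (restraint minus AOM/DSS alone) of each tested gene in the tuft cell genes, the other tuft cell and pathway lists, and 2 other secretory lineages; the bar is the list's median. The tuft cell genes spread from -2.42 (Rgs13) to 1.504 (Avil), and 15 of 16 tuft cell genes shared with immune cells lie below 0.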

How the data were processed

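The authors deposited 1 table with whole-number read counts per gene and FPKM values for each of the 6 samples, per the file headers. Per the submitters' processing notes, the build was GRCm39 and the tools included HISAT2 2.1.0, featureCounts 1.6.2 and fastp 0.19.3. Annotation and strand setting: not given in the sources used here. FPKM served only to compare levels between genes.

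Counts were filtered with filterByExpr (minimum count 10), scaled with TMM and tested in edgeR 4.0.16 (R 4.3.3), with robust quasi-likelihood dispersions, group as the only term and Benjamini-Hochberg adjustment over 15890 genes at 0.05. The SE is the absolute log2 fold change over the square root of F. Likeness used log2 CPM with a prior count of 2. Alternatives were DESeq2 1.42.0, limma-voom (limma 3.58.1), other scalings, no filter and leaving out each sample. Each pair of samples differed by more than sampling noise (chi-square per gene 35.1 or more). Members and lists were chosen with earlier results of these data known. Genes named are the members, up to 4 of smallest p per pathway list, the 3 most abundant markers per cell type, and the 5 most like Trpm5 and Dclk1, except for items not reported here. Gfi1b, Ly6g6f, Hmx2, Gprc5c, Chat, Itpr3, Gnat3, Sucnr1, Il4, Il5, Il13, Mef2b, Ms4a2, Krt4, Krt6a, Trp63 and the genes overlapping members were added after their values were seen.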

Additional observations from a re-analysis of the deposited data

How the results depend on the processing

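Under 3 other scalings, scaling to epithelium markers, no filter and limma-voom, 0 genes and 0 tuft cell genes passed, as with each sample left out. DESeq2 called 818 genes and 1 tuft cell gene, Dclk1 (log2 fold change -0.93); the cause of the gap to edgeR was not tested. Cd300lf turned to -0.023 with upper-quartile scaling. With samples left out, the ranges were -0.38 to 0.43 for Cd300lf, -0.16 to 0.23 for Il17rb and -0.085 to 0.38 for Alox5, each crossing 0, while Dclk1, Trpm5, Pou2f3, Rgs13 and Avil kept their sign. The median of the tuft cell genes ranged from -0.65 to -0.32. In 104 refits of single members, 97 kept the direction and the side of the threshold. No paired analysis was possible because the labels state no pairing between the groups, and replicate numbers only name samples. Pou2f3 and Il25 are limited by depth, with at most 40 counts in a sample.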
